A study of Mus musculus with 16 samples.

Results

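Bhmt, Bhmt2, Mat1a, Gnmt, Ahcy, Cbs, Cth, Mtr and Pemt encode the core enzymes of the methionine cycle and of the pathways that feed it and draw on it. These 9 genes were taken by symbol, not by their values, from the 27288 gene identifiers of the deposited table, and all 9 were among the 13256 genes with a mean of at least 10 normalised reads that were tested. The RNA came from livers of C57BL/6 mice 8 to 10 weeks old. The 4 groups of 4 libraries each were wild type on the control treatment, wild type after the Gao-Binge alcohol model, and both treatments again in mice labelled as liver-specific DRP1 knockouts, the wild-type mice being paired with the knockouts per the labels' protocols. The Gao-Binge model joins feeding of an ethanol diet with a final large dose of ethanol. DRP1, encoded by Dnm1l, is the GTPase that divides mitochondria. The labels name neither the Cre line nor the deleted exons, and do not say whether each library came from its own mouse, so p-values measure the spread between these libraries. The control treatment is called control diet and the alcohol model ethanol here. The study's title links hepatic DRP1 loss to alcoholic hepatitis, and the comparisons were ethanol against control diet in each genotype, knockout against wild type on each diet, and the difference between the ethanol effects.

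The methionine cycle turns dietary methionine into S-adenosylmethionine, the methyl donor of nearly all methylation reactions, and the liver carries most of it. Methyltransferases pass the methyl group on and leave S-adenosylhomocysteine, which is hydrolysed to homocysteine. Homocysteine is then either remethylated to methionine, with a methyl group from betaine or from folate, or sent through transsulfuration to cysteine and on to glutathione and taurine. Alcohol is known to disturb hepatic methionine metabolism, and loss of S-adenosylmethionine synthesis in hepatocytes is known to cause steatosis in mice.

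The genes lie on several chromosomes of the mouse build GRCm38, in GENCODE coordinates. Mat1a is on the plus strand at chr14:41105035-41124412, and the other members are on the minus strand. Gnmt is at chr17:46725664-46729168, Cbs at chr17:31608894-31637238, Ahcy at chr2:155059310-155074497, Cth at chr3:157894248-157925077 and Pemt at chr11:59970614-60046489. Mtr, at chr13:12182712-12258113, shares its chromosome with the neighbouring pair Bhmt, at chr13:93616675-93637961, and Bhmt2, at chr13:93655720-93674302. Upstream sequences from RefSeq (GRCm38.p6) are shown for 3 of the members that had a window, picked for unlike behaviour. They are Gnmt, the member called between genotypes on ethanol, Mtr, which fell most after ethanol, and Bhmt2, whose level hardly moved. Each is the 250 bases before the transcription start, read 5′ to 3′ on the gene's strand, with CpG dinucleotides in capitals. The RefSeq table gave windows for 7 of the 9 members, 8 windows in all, Mat1a and Cth not among them.
Gnmt, chr17:46729166-46729415, minus strand: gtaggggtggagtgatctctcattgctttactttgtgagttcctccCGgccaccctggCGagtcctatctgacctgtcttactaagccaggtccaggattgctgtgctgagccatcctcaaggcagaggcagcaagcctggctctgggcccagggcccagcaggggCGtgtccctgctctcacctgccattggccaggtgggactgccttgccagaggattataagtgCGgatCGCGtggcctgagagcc
Mtr, chr13:12258114-12258363, minus strand: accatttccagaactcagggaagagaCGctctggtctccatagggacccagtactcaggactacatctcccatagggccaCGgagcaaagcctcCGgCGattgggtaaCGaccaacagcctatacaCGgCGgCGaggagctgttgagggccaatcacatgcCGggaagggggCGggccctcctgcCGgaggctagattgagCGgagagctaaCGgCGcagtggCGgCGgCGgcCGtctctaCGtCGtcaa
Bhmt2, chr13:93674303-93674552, minus strand: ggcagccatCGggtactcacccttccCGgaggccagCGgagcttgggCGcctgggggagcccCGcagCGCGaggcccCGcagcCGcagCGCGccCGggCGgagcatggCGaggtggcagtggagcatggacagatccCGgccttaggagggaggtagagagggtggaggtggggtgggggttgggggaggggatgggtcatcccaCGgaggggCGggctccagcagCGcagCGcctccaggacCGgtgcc
Mtr and Bhmt2 each held 20 CpG in these 250 bases and Gnmt held 6, which was also the median over the 32851 windows of the table. Bhmt held 5, Cbs 21, Ahcy 9, and the 2 windows of Pemt 1 and 2. Letters of 5 known motifs were searched on both strands of the full windows of 300 bases, which run 50 bases past the start. CACGTG (E-box) stood in 1 of the 8 member windows, that of Cbs, and in 7.15% of all windows. TGTTCT (a glucocorticoid receptor site) stood in 1 member window, of Pemt, and in 19% of all. TGATGCAA (C/EBP-ATF element, 0.895% of all windows), TGACNNNGC (antioxidant element, 12.4%) and CAAAGTCCA (HNF4A site, 0.475%) were in no member window.

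Depth was 11425136 to 13864862 reads per library. Dnm1l itself was 663 ± 56.1 normalised reads (SD, n = 4) in wild type and 642 ± 72.7 in knockout on control diet, and 743 ± 38.4 and 803 ± 99.3 after ethanol. The whole-gene value did not separate the genotypes (fold 0.967 on control diet, 95% interval 0.828 to 1.13, limma adjusted p = 0.825), and with the deleted exons not given it is no check of the genotype labels, so genotype directions hold for the libraries as labelled. Ethanol gave a Dnm1l fold of 1.25 in the knockout, which passed (1.07 to 1.46, limma adjusted p = 0.0421), and 1.12 in wild type (0.962 to 1.31, 0.229). The difference between these effects did not pass (0.687). For the tissue label, 10 hepatocyte markers summed to 1137972 to 2042760.0 normalised reads per library, with none at 0. After ethanol, wild-type libraries 1 and 2 stood apart from 3 and 4 over all genes. The mean chi-square per gene was 14.9 between 1 and 2, 38.4 between 3 and 4 and 70.7 to 121 across the sets. In knockout ethanol libraries the same values were 22.2, 11.55 and 30.7 to 35.8. Knockout control library 3 was at 35.01 to 67.25 from the others of its group. Knockout ethanol library 1 held 7350.0 normalised reads of 5 pancreas markers, against at most 11.4 in the libraries of the other groups, and knockout ethanol library 4 held 6158 of 5 blood markers, against at most 2969 there. In whole liver, fewer cells of a type and less RNA per cell cannot be told apart.

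The 9 genes differed widely in level. Compared per kilobase of the longest coding transcript and averaged over all 16 libraries, Mat1a stood at 24466 normalised reads per kb and Gnmt at 22194. Bhmt followed at 4384, Pemt at 3052 and Cth at 1975. Bhmt2, at 1247, and Ahcy, at 1195, were close to each other, Cbs stood at 696, and Mtr came last at 14.9. The genes together held 0.714% ± 0.0650 (SD, n = 4) of all reads in wild type on control diet and 0.718% ± 0.118 in knockout. After ethanol the share was 1.38% ± 0.199 in wild type and 1.38% ± 0.204 in knockout, and in each genotype all 4 ethanol libraries lay above all 4 control libraries. Mat1a made up most of that rise. Between its lowest and its highest library Mat1a varied 5.54-fold, Bhmt 3.81-fold and Mtr 3.41-fold, whereas Bhmt2 varied 1.51-fold.

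**Figure D1:**
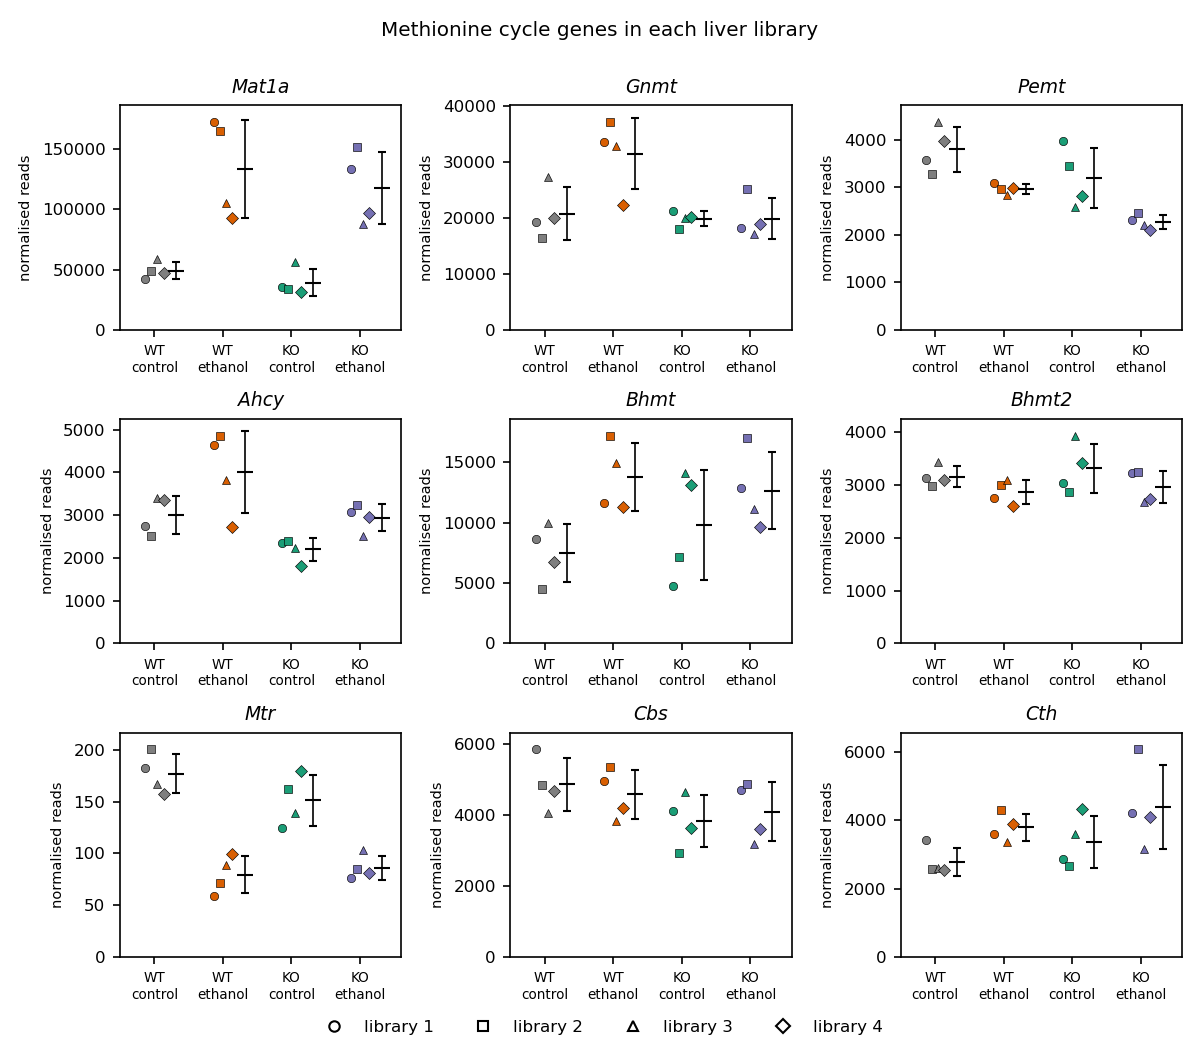
Normalised reads (y axes, linear, from 0) of the 9 methionine cycle genes in each of the 16 liver libraries, by group; marker shapes give the library number, and the bars give the mean and SD of 4 libraries. Mat1a stands between 87835 and 172296 in the ethanol libraries and at 58834 or below on control diet, Mtr shows the opposite order, and Bhmt2 stays between 2608 and 3934 throughout.

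In wild type, ethanol raised Mat1a, Gnmt and Bhmt and lowered Mtr and Pemt. These 5 of the 9 members passed limma's threshold of adjusted p under 0.05, 3 higher and 2 lower, where 38.0% of all genes tested were called, 18.9% higher and 19.0% lower. In the knockout, ethanol raised Mat1a and lowered Mtr and Pemt, 3 of 9 members called against 19.2% of all genes, 10.2% higher and 9.01% lower. The groups did not overlap for 4 of 9 members in wild type (35.1% of all genes) and for 4 of 9 in the knockout (23.0%). The median effect over the 9 members was 0.39 on the log2 scale in wild type and 0.09 in the knockout, against -0.01 over all genes in each. Cell markers moved with the same comparisons. After ethanol in wild type 11 of 13 tested macrophage markers were lower, the sum of the 14 listed going from 3230.5 to 7318 normalised reads per library to 1214 to 1801, and 5 of 8 endothelial markers were higher (sum 1340.0 to 1795, then 2355 to 2669.7). Of 8 stellate cell and fibroblast markers 4 were higher and 1 lower, and of 10 hepatocyte markers 4 were higher (sum 1548865 to 1828134, then 1447710.1 to 2042760.0). In the knockout 2 macrophage markers were lower, and 4 endothelial, 3 stellate and 2 hepatocyte markers were higher. None of these markers was at 0 throughout a group, and their part in the members' changes was not tested. Fold changes here are on the log2(value + 1) scale, which matters little except for low genes.

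**Figure D2:**
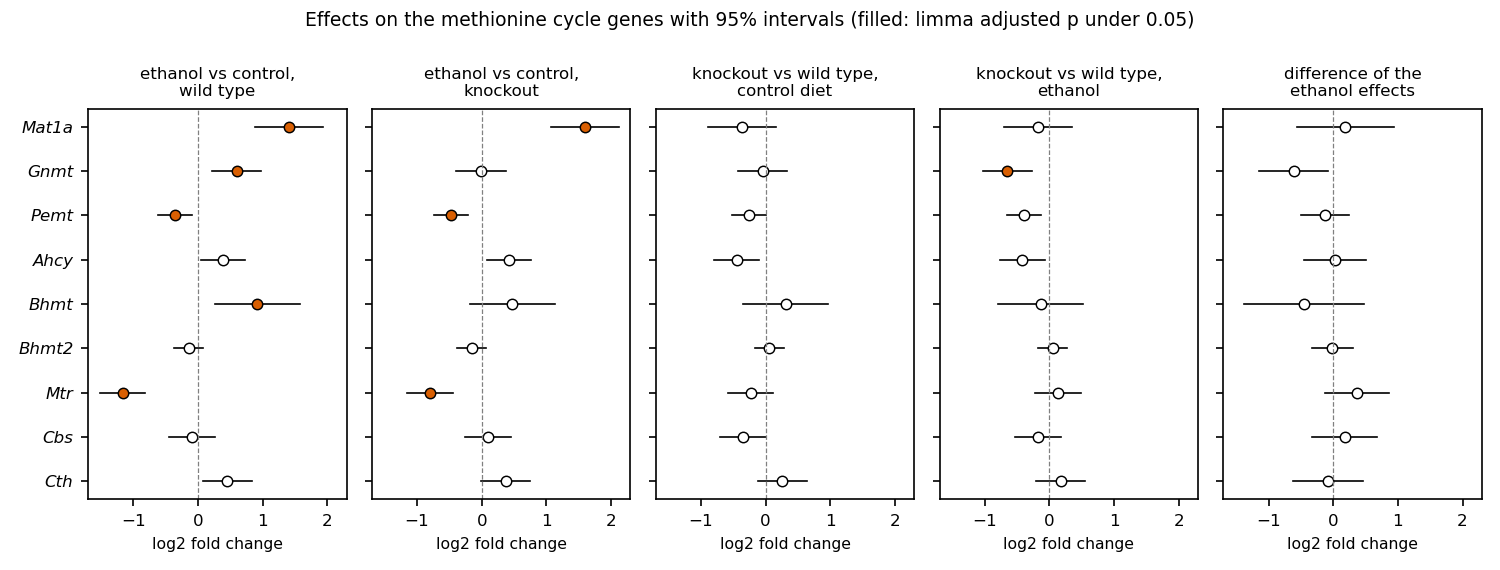
Log2 fold changes (x axes, with 95% intervals) of the 9 genes in the 5 comparisons from the limma fit; filled points passed an adjusted p under 0.05. Mat1a and Mtr were called in both ethanol comparisons, Gnmt was the member called between genotypes on ethanol, and no member was called for the genotype on control diet or for the difference of the ethanol effects.

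S-adenosylmethionine is made by methionine adenosyltransferase, of which Mat1a encodes the catalytic subunit of adult hepatocytes. On control diet Mat1a stood at 41829, 48767, 58834 and 46954 normalised reads in wild-type libraries 1 to 4 and at 35692, 33570.5, 55956 and 31089.9 in the knockout. After ethanol it stood at 172296, 164865, 105011 and 92816 in wild type and at 133602, 151282, 87835 and 97166 in the knockout. Every ethanol library lay above every control library of either genotype, and in both genotypes ethanol libraries 1 and 2 were the highest. Ethanol raised Mat1a 2.65-fold in wild type (95% interval 1.84 to 3.81, log2 1.40 ± 0.25 SE, limma adjusted p = 0.000387). In the knockout the rise was 3.02-fold (2.09 to 4.34, log2 1.59 ± 0.25, adjusted p = 0.000444). The difference between the ethanol effects was 0.19 on the log2 scale (95% interval -0.56 to 0.93, adjusted p = 0.852), which leaves room for effects that differ in either direction. With ethanol libraries 1 and 2 alone the rise in wild type was 1.79 on the log2 scale (adjusted p = 6.87e-05), and with libraries 3 and 4 alone it was 1.02 (0.00716). The knockout gave 1.90 and 1.28 in the same sets (adjusted p = 0.000214 and 0.00457). Without the knockout ethanol libraries rich in pancreas and blood markers, Mat1a still rose by 1.60 there (adjusted p = 0.00817).

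Mat2a encodes the catalytic subunit of the form found outside the adult liver and in dividing hepatocytes. It rose too, from 1278 ± 145 to 2557 ± 617 normalised reads in wild type (1.97-fold, 95% interval 1.60 to 2.42, limma adjusted p = 6.46e-05) and from 1298 ± 136 to 1950.0 ± 136 in the knockout (1.51-fold, 1.22 to 1.85, adjusted p = 0.00795). No ethanol library of either genotype fell among its controls. The log2 ratio of Mat1a to Mat2a was 5.26 ± 0.37 (SD, n = 4) in wild type on control diet, 5.69 ± 0.21 in wild type after ethanol, 4.88 ± 0.39 in knockout on control diet and 5.88 ± 0.35 in knockout after ethanol. In the knockout the ratio was higher by 1.002, with all 4 ethanol libraries above all 4 control libraries (exact two-sided permutation p = 0.0286, the smallest that 4 against 4 can give, 0.114 after adjustment over the 4 contrasts). In wild type the difference was 0.43 (exact permutation p = 0.114, adjusted 0.229). Between genotypes the ratio differed by -0.38 on control diet and 0.19 after ethanol (exact permutation p = 0.229 and 0.314).

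**Figure D3:**
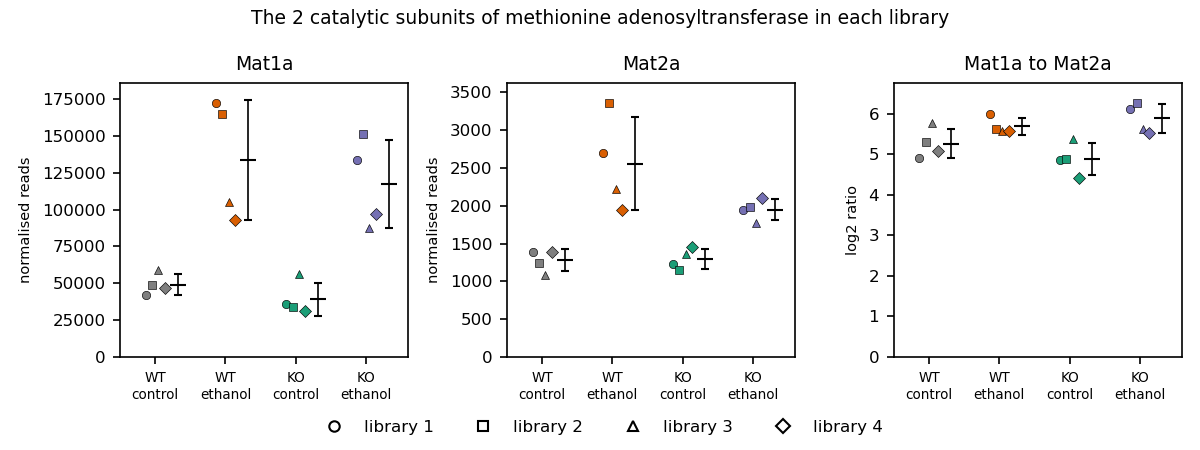
Normalised reads of Mat1a and of Mat2a (y axes from 0) and the log2 ratio of Mat1a to Mat2a in each library, by group, with the mean and SD of 4 libraries. Both genes stand higher after ethanol in both genotypes, and the ratio rises from a mean of 4.88 to 5.88 in the knockout and from 5.26 to 5.69 in wild type.

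Gnmt encodes glycine N-methyltransferase, which uses up surplus S-adenosylmethionine by methylating glycine and is among the most abundant methyltransferases of liver. In wild type Gnmt stood at 19261, 16368, 27373 and 20036 normalised reads on control diet and at 33570.0, 37086, 32864 and 22277 after ethanol. In the knockout it stood at 21213, 17977, 19877 and 20186 on control diet and at 18092, 25222, 17169 and 18954 after ethanol. Wild-type ethanol libraries 1 to 3 lay above all other libraries, and wild-type ethanol library 4 fell within the range of the remaining groups. Ethanol raised Gnmt 1.52-fold in wild type (95% interval 1.16 to 1.97, log2 0.60 ± 0.18, limma adjusted p = 0.0147). In the knockout the fold was 0.993 (0.763 to 1.29, adjusted p = 0.976). The difference between these effects was -0.61 ± 0.25 on the log2 scale (95% interval -1.15 to -0.07), with an unadjusted p of 0.0281 and a limma adjusted p of 0.310, so it did not pass the threshold across all genes. The call in wild type did not hold without control library 2 of that genotype (log2 0.49, adjusted p = 0.0536), without wild-type ethanol library 2 (0.51, 0.0511) and with ethanol libraries 3 and 4 alone (0.41, 0.158). It was also lost where the fit held only the groups compared (adjusted p = 0.0527).

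Pemt encodes phosphatidylethanolamine N-methyltransferase, which spends S-adenosylmethionine on making phosphatidylcholine for membranes and lipoproteins. Its values were 3572, 3273, 4375 and 3977 normalised reads in wild type on control diet and 3083, 2963, 2837 and 2994 after ethanol. In the knockout they were 3983, 3446, 2579 and 2819 on control diet and 2311, 2466, 2202 and 2103 after ethanol. The 4 knockout ethanol libraries were the lowest of the 16, and neither genotype's ethanol group overlapped with its controls. Pemt fell to 0.786 of its control level in wild type (95% interval 0.656 to 0.942, limma adjusted p = 0.0356) and to 0.717 in the knockout (0.598 to 0.860, adjusted p = 0.0125). The wild-type call was lost in 11 of 29 alternatives, among them the fit with the replicate number as a block (adjusted p = 0.0506), the one without wild-type control library 3 (log2 -0.28, 0.114) and the one without library 4 of that group (-0.32, 0.0851). It was also lost without wild-type ethanol library 1, 2, 3 or 4 (adjusted p = 0.0512, 0.0665, 0.0701 and 0.0566). The knockout call was lost without knockout ethanol libraries 1 and 4 (log2 -0.44, adjusted p = 0.108) and with ethanol libraries 1 and 2 alone (-0.40, 0.109).

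Ahcy encodes the hydrolase that clears S-adenosylhomocysteine, the inhibitor of methyltransferases. It stood at 2749.9, 2520.1, 3402 and 3352 normalised reads in wild type and at 2346, 2396, 2239 and 1812 in knockout on control diet. After ethanol it stood at 4635, 4861, 3818 and 2727 in wild type and at 3079, 3243, 2502 and 2948 in the knockout. All knockout control libraries lay below all other libraries, while wild-type ethanol library 4 lay far below the other three of its group. No comparison passed the threshold. On control diet the knockout was at 0.733 of wild type (95% interval 0.578 to 0.929, limma adjusted p = 0.0832), and ethanol gave 1.31-fold in wild type (1.04 to 1.66, adjusted p = 0.0662) and 1.34-fold in the knockout (1.06 to 1.70, adjusted p = 0.0773). Without wild-type ethanol library 4, which also enters the shared estimate of spread, 4 tests of Ahcy passed in limma: the genotype on control diet (adjusted p = 0.0329), the genotype on ethanol (log2 -0.59, 0.0127), ethanol in wild type (log2 0.57, 0.00511) and ethanol in the knockout (0.0302). With all libraries kept, ethanol in wild type passed in DESeq2 (adjusted p = 0.0389). Ethanol in the knockout passed where limma held only the groups compared (adjusted p = 0.03555). With ethanol libraries 1 and 2 alone, limma called the genotype on control diet (adjusted p = 0.0248), ethanol in wild type (0.00279) and ethanol in the knockout (0.0256). Ahcy shares 65.9% of the 75-base windows of its exons with other genes (1840 of 2794), chiefly the predicted gene Gm4737, so its counts are uncertain. Gm4737 was listed at group means of 384, 502, 319 and 417, in the order wild type control, wild type ethanol, knockout control and knockout ethanol.

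Homocysteine is remethylated by methionine synthase, encoded by Mtr, which takes the methyl group from folate and needs cobalamin, and by 2 related enzymes that need no folate, encoded by Bhmt, which uses betaine, and Bhmt2. Mtr stood at 182, 201, 167 and 158 normalised reads in wild type on control diet and at 59.0, 71.1, 89.2 and 99.0 after ethanol. In the knockout it stood at 124, 162, 139 and 180.1 on control diet and at 75.7, 84.8, 103 and 80.8 after ethanol. All 8 ethanol libraries lay below all 8 control libraries. Mtr fell to 0.446 of its control level in wild type (95% interval 0.350 to 0.569, log2 -1.17 ± 0.17, limma adjusted p = 5.89e-05). In the knockout it fell to 0.573 (0.450 to 0.731, log2 -0.80 ± 0.17, adjusted p = 0.00337). The difference between the effects was 0.36 ± 0.24 on the log2 scale (95% interval -0.13 to 0.86, adjusted p = 0.520). The knockout call was lost without knockout ethanol libraries 1 and 4 (log2 -0.68, adjusted p = 0.0627).

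Bhmt, the liver's main betaine-homocysteine methyltransferase, stood at 8632, 4517, 9997 and 6743 normalised reads in wild type on control diet and at 11648, 17209.8, 14918 and 11290.3 after ethanol. In the knockout it stood at 4736, 7119, 14112 and 13157 on control diet and at 12848, 17000.1, 11111 and 9612 after ethanol. The wild-type groups did not overlap, while the knockout control libraries split into a low pair, 1 and 2, and a high pair, 3 and 4, that lay among the ethanol libraries. Ethanol raised Bhmt 1.89-fold in wild type (95% interval 1.20 to 2.98, log2 0.92 ± 0.31, limma adjusted p = 0.0275). In the knockout the fold was 1.39 (0.881 to 2.19, adjusted p = 0.297). The difference between the effects was -0.45 on the log2 scale (-1.37 to 0.48, adjusted p = 0.694). Bhmt did not pass in wild type without control library 2 (log2 0.70, adjusted p = 0.100) or 4 (0.89, 0.0602), without wild-type ethanol library 2 (0.81, 0.0785) or 3 (0.87, 0.0534), and with either set of ethanol libraries alone (adjusted p = 0.0692 for 1 and 2, 0.129 for 3 and 4). Bhmt shares 21.0% of its 75-base exon windows with other genes, chiefly the predicted gene Gm5096, and overlaps the antisense gene Gm15622 over 187 of 5758 exon bases. Gm5096 stood at 1075 and 2127 in wild type and at 1531 and 1970.0 in knockout (group means, control then ethanol), and reads of these genes cannot be fully told apart.

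Bhmt2 encodes the enzyme that takes the methyl group from S-methylmethionine. Its group means were 3159.6 ± 196 and 2864 ± 224 normalised reads in wild type and 3314 ± 471 and 2967 ± 302 in knockout, control then ethanol, and the 4 groups overlapped. Ethanol gave folds of 0.906 in wild type (95% interval 0.774 to 1.06) and 0.899 in the knockout (0.768 to 1.05), with limma adjusted p = 0.314 and 0.328. On the log2 scale these were the narrowest intervals among the 9 members for ethanol.

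Cbs encodes cystathionine beta-synthase, which commits homocysteine to transsulfuration. Its values ranged from 4057 to 5846 normalised reads in wild type on control diet, 3817 to 5331 in wild type after ethanol, 2912 to 4649.8 in knockout on control diet and 3184 to 4877 in knockout after ethanol. The groups overlapped in every comparison. Ethanol gave folds of 0.942 (95% interval 0.737 to 1.20, limma adjusted p = 0.718) in wild type and 1.07 (0.835 to 1.36, 0.729) in the knockout. Cth encodes cystathionine gamma-lyase, the next enzyme, which releases cysteine. Cth stood at 3413, 2578, 2599.8 and 2543 in wild type on control diet and at 3610.4, 4295, 3380.3 and 3896 after ethanol, with library 1 of the control group inside the ethanol range. In the knockout Cth stood at 2883, 2664, 3601 and 4323 on control diet and at 4212, 6093, 3156 and 4107 after ethanol, and the groups overlapped. The folds were 1.37 in wild type (1.05 to 1.78, adjusted p = 0.0565) and 1.29 in the knockout (0.992 to 1.68, 0.158), and neither passed. In wild type Cth did pass with all libraries kept in DESeq2 (adjusted p = 0.04997), with TMM factors (0.0492) and where limma held only the groups compared (0.0176). Without wild-type control library 1 the wild-type value passed (log2 0.55, adjusted p = 0.0348), as it did without knockout control library 4 (0.0442) or knockout ethanol library 2 or 3 (0.0290 and 0.0392), which enter only the shared spread.

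Between genotypes on control diet, 0 of 9 members passed in limma, edgeR and DESeq2, against 11.6% of all genes called in limma (6.40% higher and 5.24% lower). The 1 member with an unadjusted limma p under 0.05 was Ahcy, and the share of all genes at that level was not counted. Ahcy was also the member whose groups did not overlap, against 17.4% of all genes. The median over the members was -0.23 on the log2 scale, against -0.01 over all genes, and 6 of 9 values lay below 0. Over 10 hepatocyte markers the median was -0.28, with 0 called higher and 1 lower. Their sum was 1548865 to 1828134 normalised reads in wild type and 1255600 to 1343091 in knockout. The part of these markers in the members' values was not tested. Mat1a was at 0.780 of wild type (95% interval 0.542 to 1.12), Cbs at 0.783 (0.612 to 1.0006) and Pemt at 0.837 (0.698 to 1.003), with limma adjusted p = 0.396, 0.193 and 0.201. Gnmt, at 0.970 (0.746 to 1.26), lay nearest to wild type.

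After ethanol, Gnmt was lower in the knockout than in wild type, at 0.635 of the wild-type level (95% interval 0.488 to 0.826, log2 -0.65 ± 0.18, limma adjusted p = 0.0280). Gnmt was the 1 of 9 members called, against 9.88% of all genes called, 6.13% higher and 3.75% lower. The groups overlapped, since wild-type ethanol library 4 (22277) lay below knockout ethanol library 2 (25222). At each of the 4 library numbers Gnmt was lower in the knockout ethanol library than in the wild-type one, though the labels do not say that numbers pair libraries. Pemt was at 0.764 of wild type (0.637 to 0.915, adjusted p = 0.0565) and was the 1 member whose groups did not overlap, against 15.7% of all genes. Pemt passed in DESeq2 (adjusted p = 0.0316), with TMM factors (0.0491) and where the fit held only the groups compared (0.0215), and also without knockout control library 1 or 3 (0.0271 and 0.0356). Ahcy was at 0.749 (0.590 to 0.949, adjusted p = 0.117), Mat1a at 0.888 (0.617 to 1.28, 0.733) and Mtr at 1.09 (0.859 to 1.40, 0.687).

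The Gnmt call between genotypes was lost in 10 of 29 alternatives, while its log2 value stayed between -0.72 and -0.57 in those. It was lost without wild-type ethanol library 1 (log2 -0.61, limma adjusted p = 0.0785) or 2 (-0.57, 0.0876), and without knockout ethanol library 1 (-0.62, 0.0748), 3 (-0.59, 0.0900) or 4 (-0.64, 0.0713). Without knockout ethanol libraries 1 and 4 the value was -0.57 (0.231), with ethanol libraries 1 and 2 alone -0.72 (0.0679) and with libraries 3 and 4 alone -0.58 (0.232). No filter on low genes gave an adjusted p of 0.0542, and a fit on only the groups compared gave 0.0729. Markers of cell types differed between the same groups. Of 10 pericentral hepatocyte markers 6 were lower in the knockout on ethanol, and their sum was 118185 to 157069.7 normalised reads in wild type and 62735 to 91234 in knockout, with none at 0. The same list, again with 6 lower, summed to 127203 to 157455 and 75884 to 96188 on control diet, where Gnmt was level between genotypes. Of 10 periportal hepatocyte markers 2 were higher and 0 lower in the knockout on ethanol (median log2 0.33). Their sum was 66952 to 91835 in wild type and 63450 to 119317 in knockout. Of 10 general hepatocyte markers 0 were higher and 1 lower (median log2 -0.25). Of 13 macrophage markers tested 13 were higher in the knockout on ethanol, and the sum of the 14 listed was 1214 to 1801 in wild type and 6543 to 8325 in knockout. The part of these cell markers in the Gnmt result was not tested.

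**Figure D4:**
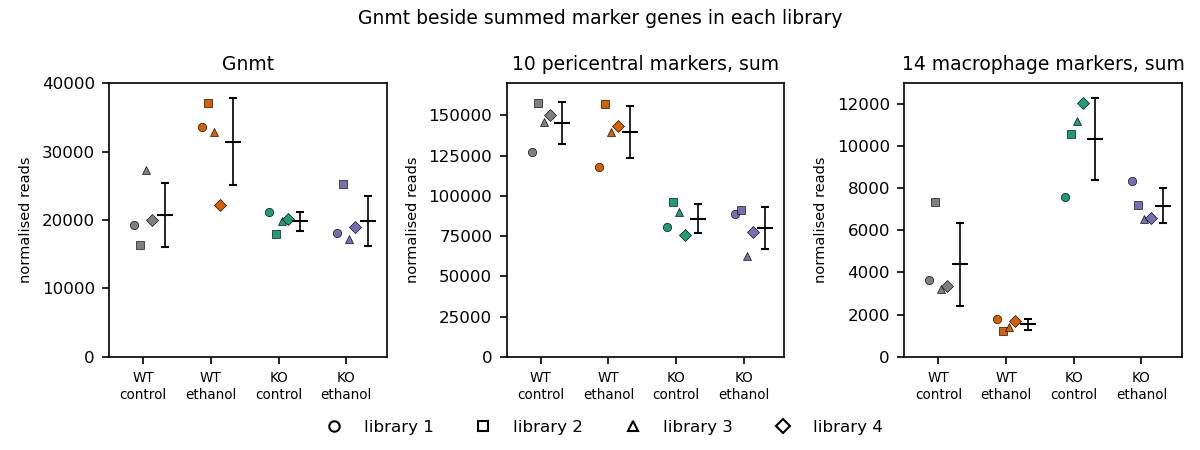
Normalised reads (y axes from 0) of Gnmt, the sum of 10 pericentral hepatocyte markers and the sum of 14 macrophage markers in each library, by group, with the mean and SD of 4 libraries. The pericentral sum separates the genotypes on both diets. Gnmt stands at 32864 or above in 3 of the 4 wild-type ethanol libraries and between 16368 and 27373 in all others.

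For the difference between the ethanol effects 0 of 9 members passed in limma, edgeR and DESeq2, against 0.347% of all genes in limma (0.143% higher and 0.204% lower). Gnmt was the 1 member with an unadjusted limma p under 0.05, and the share of all genes at that level was not counted. The comparisons share libraries with each other, since each group enters more than 1 of them, and each comparison's own values are given above.

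Genes around the cycle were described from lists of named partners. Of 15 partners and methionine salvage genes, 2 rose and 2 fell after ethanol in wild type, and 2 rose and 3 fell in the knockout, where 38.0% and 19.2% of all genes were called. Got1, the cytosolic aspartate aminotransferase, rose from 2659.7 ± 434 to 9517 ± 2106 normalised reads in wild type and from 2458 ± 1125 to 9424 ± 4529.8 in the knockout (3.55-fold and 3.74-fold, limma adjusted p = 0.000252 and 0.000585). Adi1, an enzyme of the salvage pathway that rebuilds methionine, fell to 0.632 and 0.721 of control (adjusted p = 0.000183 and 0.00609). Apip, of the same pathway, fell to 0.684 in the knockout (adjusted p = 0.00633), and its wild-type value of 0.947 did not pass (0.656). With ethanol libraries 1 and 2 alone the knockout value did not pass either (log2 -0.37, adjusted p = 0.102). With genotype on control diet 1 gene of this list was called, against 11.6% of all genes. It was Apip, at 1.39-fold (268 ± 16.7 against 194 ± 24.8, adjusted p = 0.0219). Apip did not pass once library 2 was removed from the wild-type controls (log2 0.38, adjusted p = 0.0679) or from the knockout controls (0.45, 0.0539).

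The folate cycle supplies the methyl group that Mtr uses. Of 25 folate genes tested, 6 rose and 6 fell after ethanol in wild type (38.0% of all genes called) and 5 rose and 5 fell in the knockout (19.2%). With genotype 1 rose and 1 fell on control diet (11.6% of all genes) and 2 rose and 3 fell on ethanol (9.88%). Mthfd2, a mitochondrial folate enzyme that is low in adult liver, rose from 29.3 ± 5.38 to 280.0 ± 133 in wild type and from 50.5 ± 2.60 to 156 ± 30.7 in the knockout (8.59-fold and 3.01-fold, adjusted p = 3.98e-07 and 0.000637). The difference between those effects was -1.51 ± 0.37 on the log2 scale and did not pass (adjusted p = 0.0874). Amt, of the glycine cleavage system, rose 1.998-fold and 2.13-fold (limma adjusted p = 2.53e-05 and 4.26e-05). Mthfd1l, a mitochondrial formate-producing enzyme, was higher in the knockout on both diets, 1.69-fold on control diet and 1.79-fold on ethanol (adjusted p = 0.0181 and 0.0104). Without wild-type control library 1 the first of these did not pass (log2 0.66, adjusted p = 0.0612), and with ethanol libraries 3 and 4 alone the second did not (0.49, 0.438).

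Choline supplies betaine for Bhmt and is also drawn into phosphatidylcholine, the product of Pemt. Of 19 tested genes of choline and betaine supply, 3 rose and 4 fell after ethanol in wild type and 2 rose and 1 fell in the knockout, where 38.0% and 19.2% of all genes were called. Chka, choline kinase, rose from 332 ± 61.7 to 1742 ± 493 normalised reads in wild type and from 382 ± 18.0 to 1826 ± 605 in the knockout (5.17-fold and 4.58-fold, limma adjusted p = 5.65e-07 and 5.08e-06). Pcyt2, of the phosphatidylethanolamine branch that gives Pemt its substrate, fell to 0.471 and 0.659 of control (4.07e-05 and 0.00965), and in the knockout it did not pass with ethanol libraries 3 and 4 alone (log2 -0.50, adjusted p = 0.0813). Chdh, which oxidises choline on the way to betaine, fell to 0.591 in wild type (adjusted p = 0.000969), and its knockout value of 0.828 did not pass (0.215). That difference did not pass either (log2 0.48, adjusted p = 0.336).

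Of 21 tested genes of other enzymes that use S-adenosylmethionine, 5 rose and 7 fell after ethanol in wild type (38.0% of all genes called), and 2 rose and 4 fell in the knockout (19.2%). Gamt, the last enzyme of creatine synthesis and a major user of methyl groups, fell from 3413 ± 729 to 1787 ± 352 normalised reads in wild type and from 2322 ± 482 to 1134 ± 80.2 in the knockout (to 0.526 and 0.497, limma adjusted p = 0.000717 and 0.00110). Nnmt, which methylates nicotinamide, rose 5.13-fold in wild type (1183 ± 359 to 7239 ± 4940.3, adjusted p = 0.00101) and gave 2.58-fold in the knockout (0.0518). Wild-type ethanol libraries 1 and 2 held 11044 and 11958 normalised reads of Nnmt and libraries 3 and 4 held 3240.1 and 2714, so its log2 rise was 3.34 with the first set alone and 1.38 with the second (adjusted p = 4.73e-05 and 0.0286). With genotype on ethanol, 0 of the 21 rose and 1 fell, against 9.88% of all genes called. It was Gamt, at 0.643 of wild type (adjusted p = 0.0307). The Gamt call did not hold with the replicate number as a block (adjusted p = 0.0526), without wild-type ethanol library 1, 2 or 3 (0.0887, 0.0541 and 0.0670) and without knockout ethanol library 1, 3 or 4 (0.0797, 0.0647 and 0.0750). It did not hold without knockout ethanol libraries 1 and 4 together (0.235), nor with ethanol libraries 1 and 2 (0.122) or 3 and 4 (0.315) alone.

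Downstream of Cth lie cysteine, taurine, sulfide and glutathione. Of 17 genes tested there, 6 rose and 4 fell after ethanol in wild type (38.0% of all genes called), and 4 rose and 3 fell in the knockout (19.2%). Cdo1, which oxidises cysteine toward taurine, rose from 17943 ± 1843 to 37061 ± 5389.7 normalised reads in wild type and from 16466 ± 3649 to 29407 ± 6517 in the knockout (2.06-fold and 1.78-fold, limma adjusted p = 0.000236 and 0.00353). Gclm, the regulatory subunit of the first glutathione enzyme, fell to 0.665 and 0.620 (0.00123 and 0.00109), and Chac2, which breaks glutathione down, fell to 0.364 and 0.571 (3.21e-05 and 0.00837). With genotype on control diet 3 of the 17 were higher and 0 lower, against 11.6% of all genes called. They were Gsr, glutathione reductase, at 1.41-fold (adjusted p = 0.0107), Gss, glutathione synthetase, at 1.48-fold (0.0117), and Slc7a11, the cystine importer. Slc7a11 stood at 0.00, 0.00, 0.00 and 1.04 in wild type and at 54.9, 25.6, 60.8 and 38.7 in knockout on control diet (adjusted p = 2.64e-08). After ethanol it stood at 9.83, 8.16, 12.1 and 5.50 in wild type and at 97.4, 109, 123 and 164 in knockout (adjusted p = 1.01e-06), so the genotypes did not overlap on either diet. The macrophage markers were also higher in the knockout on both diets, and their part in the Slc7a11 result was not tested.

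Methionine synthase carries its methyl group on cobalamin. Of 9 tested genes of cobalamin handling, 2 rose and 2 fell after ethanol in wild type (38.0% of all genes called) and 3 rose and 1 fell in the knockout (19.2%). For genotype 0 passed on either diet, against 11.6% of all genes called on control diet and 9.88% on ethanol. At an unadjusted limma p under 0.05 the counts for genotype were 1 on control diet and 2 on ethanol. The share of all genes at that level was not counted, so these counts have no background to stand against. Mmab, which makes the adenosyl form of the cofactor, fell to 0.454 and 0.426 of control (limma adjusted p = 0.000388 and 0.000641). Abcd4, which exports cobalamin from lysosomes, rose 1.74-fold and 1.40-fold (0.000604 and 0.0313), and Tcn2, the carrier of cobalamin in blood, rose 1.51-fold and 1.33-fold (0.00232 and 0.0395). The knockout call of Abcd4 was lost without knockout control library 2 or 4 (adjusted p = 0.106 and 0.0812) without knockout ethanol library 2 or 3 (0.111 and 0.0629) and with ethanol libraries 3 and 4 alone (log2 0.38, 0.189). That of Tcn2 was lost in 17 of 29 alternatives, among them those without knockout control library 2, 3 or 4 (0.102, 0.0987 and 0.0914), without wild-type control library 1 or 4 (0.05005 and 0.0505) and without any 1 of the knockout ethanol libraries (0.0502 to 0.109), and that with ethanol libraries 3 and 4 alone (log2 0.40, 0.159).

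**Figure D5:**
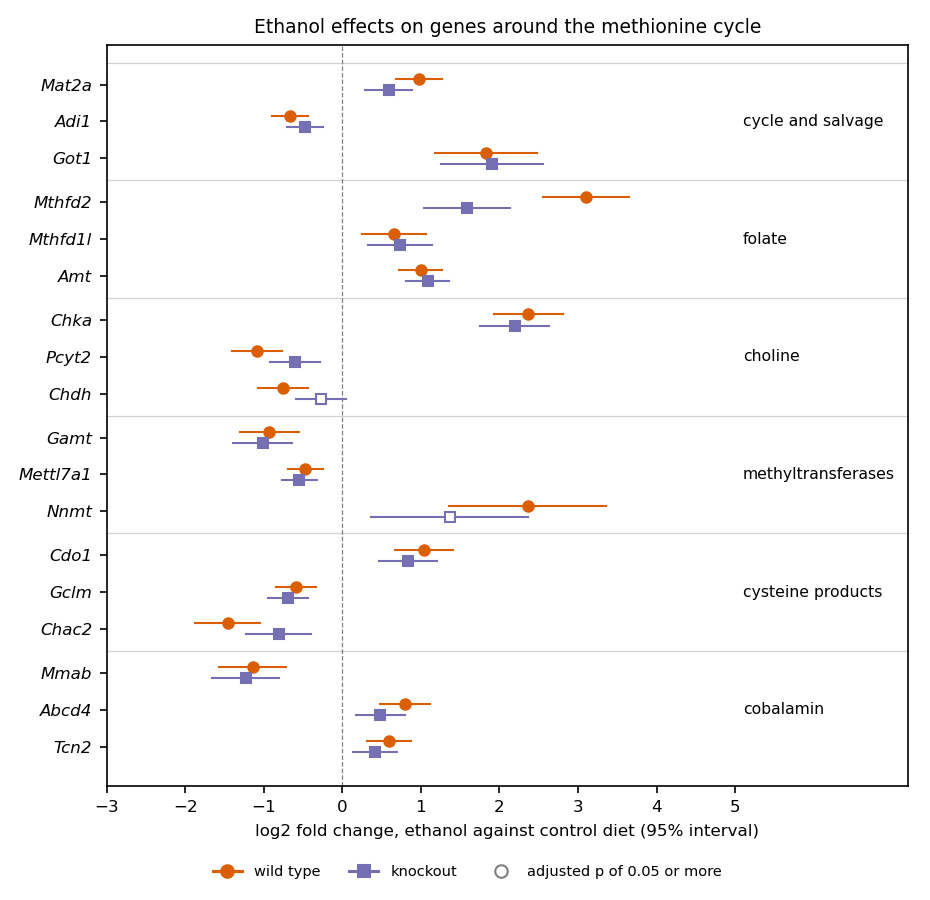
Log2 fold changes after ethanol (x axis, with 95% intervals) of genes from 6 lists around the methionine cycle, in wild type (circles) and knockout (squares); open symbols did not pass an adjusted p of 0.05. Mthfd2, Chka, Got1 and Amt rise and Mmab, Gamt, Mettl7a1 and Pcyt2 fall in both genotypes, while Chdh and Nnmt pass in wild type and have open symbols in the knockout.

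The genes whose profiles over the 16 libraries lay closest to each called member were found by the root mean square difference of centred log2 values. For Mat1a, whose own spread was 0.825, they were Cyp3a13 (0.210) and Epb41 (0.251). For Gnmt, with a spread of 0.356, they were Pon1 (0.180) and Aldh1l1 (0.187), the latter itself a folate enzyme. For Mtr, with a spread of 0.541, they were Rufy3 (0.163) and Dennd2d (0.164). For Pemt, with a spread of 0.306, they were Nipsnap1 (0.0952) and Timm17b (0.106). For Bhmt, with a spread of 0.573, they were Ston1 (0.263) and Lrch3 (0.266), the largest of these differences before allowing for each member's spread.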

How the data were processed

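RNA from frozen livers was extracted with Trizol and sequenced as single reads on an Illumina NextSeq, per the labels' protocols. The submitters' processing notes list HISAT2 2.1.0.13, HTSeq, edgeR and GRCm38. Which annotation release, which strand setting and which tool gave the size factors is not given in the sources used here. The values deposited by the authors are a signal, that is read counts each divided by the size factor of its library, as the values themselves show: 100% were whole reads within 0.01 once multiplied back, with factors of 0.814 to 1.26. Of 27288 identifiers, 27233 were matched to a symbol and 55 were not. No replicates agreed within sampling noise (mean chi-square per gene at least 11.1), so each library counted once.

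The value plus a pseudocount of 1 was taken as log2 and fitted with limma 3.58.1 in R 4.3.3, with a mean-variance trend, 4 group means, 5 contrasts and a floor of 10 on the mean value. P-values were adjusted by Benjamini-Hochberg over 13256 genes and called under 0.05. The ratio of Mat1a to Mat2a was tested by exact permutation. Scripts were tested on simulated data. The members and lists were chosen with earlier results of these data known.

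Named are the 9 members, Dnm1l, up to 3 called genes with the smallest p per list and contrast, and the 2 nearest profiles per called member. Some genes taken by this rule are left unnamed, a choice made after values were seen (3 are not reported here), as was naming the copies Gm4737, Gm5096 and Gm15622. The 12 marker lists gave sums and counts.

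Other settings numbered 26: no trend, TMM factors, pseudocounts of 0.25 and 4, a floor of 50 or none, fits of the compared groups alone, the replicate number as a block, edgeR 4.0.16 and DESeq2 1.42.0 on the recovered reads, and each of 16 libraries left out. Chosen after seeing the data were 3: without knockout ethanol libraries 1 and 4, and either set of ethanol libraries alone. Same-numbered libraries of the ethanol groups deviated together (correlation 0.102 to 0.246, other numbers -0.25 to 0.199). So did other numbers within a set: wild type 1 with knockout 2 (0.176), 2 with 1 (0.0975), 3 with 4 (0.179) and 4 with 3 (0.199). The correlations thus show libraries 1 and 2 apart from 3 and 4. They do not show that the numbers pair libraries, which the replicate block assumes. In the other pairs of groups same-numbered libraries correlated at -0.125 to 0.0371.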

Additional observations from a re-analysis of the deposited data

Results flagged for a closer look

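In 164 groups of 4 libraries, from 41 named genes and ratios, 8 held a library whose gap to its nearest neighbour, as a share of the group's range, exceeded Dixon's 95% critical value. Chance gives such a gap in about 1 in 20 groups, so 8 is close to that rate. Among the members it was met by Cth, at 3412.51 normalised reads in wild-type control library 1 against 2543 to 2600.0 in the others. Without that library Cth passed after ethanol in wild type, as it did under other settings given above. The log2 ratio of Mat1a to Mat2a was 5.996 in wild-type ethanol library 1 and 5.559 to 5.618 in the others.

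Among the surrounding genes, Mthfd1l stood at 88.9 in wild-type ethanol library 4 (others 48.9 to 55.7) and Chdh at 1671 in wild-type ethanol library 3 (1125 to 1213). Gss stood at 1155 in wild-type control library 4 (969 to 986) and at 1632 in knockout ethanol library 3 (1303 to 1344). Cdo1 stood at 21938 in knockout control library 3, with the rest of that group at 14560 to 14770. Slc7a11 stood at 1.04, a single read, in wild-type control library 4 and at 0 in the others.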

How the results depend on the processing

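Over 2742 values of single genes under the alternatives, 2593 kept their side of the threshold and 128 lost and 21 gained a call. None that was called reversed, and 39 changed sign where neither value was called. Mat1a in both genotypes and Mtr in wild type kept their calls in all 29 alternatives; Mat1a ranged from 1.02 to 1.79 (log2) in wild type and from 1.28 to 1.90 in the knockout. The count of members called for ethanol in wild type was 5 and fell to 2 with ethanol libraries 3 and 4 alone. DESeq2 kept those 5 and also called Ahcy and Cth (DESeq2 adjusted p = 0.0389 and 0.04997). In the knockout the count was 3 and fell to 1 without knockout ethanol libraries 1 and 4. For the genotype on ethanol it was 1, and became 0 with no filter, without knockout ethanol libraries 1 and 4, or with either set of ethanol libraries alone, and 2 with TMM factors or DESeq2. For the genotype on control diet it was 0, and 1 with ethanol libraries 1 and 2 alone. Leaving out 1 library each gave 2 to 6 members for ethanol in wild type, 3 to 4 in the knockout, 0 to 2 for the genotype on ethanol, 0 to 1 for the genotype on control diet and 0 for the difference of the ethanol effects.

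Over all genes, leaving out 1 library each gave 4243 to 5293 calls for ethanol in wild type (5032 with all), 1745 to 2948 in the knockout (2543), 845 to 1688 for the genotype on ethanol (1310), 923 to 1695 for the genotype on control diet (1544) and 8 to 215 for the difference (46). Without knockout ethanol libraries 1 and 4 the counts were 1034 for ethanol in the knockout, 489 for the genotype on ethanol and 0 for the difference. Ethanol libraries 3 and 4 alone gave 3155 for ethanol in wild type, 1392 in the knockout, 453 for the genotype on ethanol and 0 for the difference, and libraries 1 and 2 alone gave 263 for the difference. The difference counted 16 genes with no trend, 30 in edgeR and 266 in DESeq2. Fewer libraries enter the left-out fits, and the cause of the other changes was not tested.

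With the replicate number as a block, the difference counted 24 genes and the genotype on ethanol 1228. For ethanol in wild type the block left 4 members called, Pemt losing its call, and it kept the Gnmt call for the genotype on ethanol. Of the other calls named among the members and the lists around the cycle, it removed that of Gamt for the genotype on ethanol and that of Tcn2 for ethanol in the knockout, and no other. The log2 ratio of Mat1a to Mat2a kept its sign when 1 library was left out, from 0.849 to 1.16 for ethanol in the knockout, 0.313 to 0.595 in wild type, 0.067 to 0.309 for the genotype on ethanol and -0.545 to -0.216 on control diet. Among the 9 members depth was lowest for Mtr, with 48 to 202 reads per library.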
